A study of Homo sapiens with 20 samples.

Results

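The genes described here encode subunits of the COPI and COPII vesicle coats: COPA, COPB1, COPB2, COPE and ARCN1 of COPI, and SEC23A, SEC23B, SEC24D and SEC31A of COPII. Every probe set with 1 annotated symbol among these 9 genes was taken, which gave 19 of the 22215 probe sets on the array. The genes were selected on results of the leucine comparison at 480 min in these same arrays, so values of that comparison are given as a description. RNA came from THLE-3 cells, an established line grown from adult human liver epithelium and made immortal by the SV40 large T antigen, and was hybridised to 20 Affymetrix human arrays. Cells were in low leucine (0.1 mM) or high leucine (2.0 mM) and were taken at 0, 30, 60, 120 or 480 min, with 1 array of a first experiment and 1 of a second experiment in each of the 10 groups. The labels do not say how cells were kept before 0 min, nor whether the experiments were separate cultures. The p-values therefore reflect the spread between these samples only, which may be technical. THLE-3 is 1 line carrying a viral oncogene, and bulk RNA cannot tell fewer cells with a transcript from less of it per cell.

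Proteins and lipids move between the endoplasmic reticulum and the Golgi in coated vesicles. COPII, assembled on membranes by the GTPase SAR1, carries newly made secretory and membrane proteins out of the endoplasmic reticulum: SEC23 and SEC24 form its inner layer and SEC13 and SEC31 its outer cage. COPI, a complex called coatomer that is recruited by the GTPase ARF1, returns escaped proteins and empty receptors from the Golgi to the endoplasmic reticulum and works within the Golgi. Liver parenchymal cells export large amounts of plasma proteins along this route, and transcription factors of the unfolded protein response are known to control many genes of the route.

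Promoters of 8 of the 9 genes were found in a RefSeq table (assembly GRCh38.p14, 250 bases before to 50 bases after the transcription start), which held 13 windows for them; SEC24D was not among them. TGACGTG, the core of the unfolded protein response element that XBP1 and ATF6 bind, was searched on both strands. It was present in 692 of 35116 windows in the table (1.97%, 2.40% of genes), and in 6 of the 13 windows of the coat genes, in COPA, COPB1, COPB2, COPE and SEC23A. Among 57 genes of related transport machinery with a window, 9 held it. The 6 distinct sites are shown because they are the sequence that 5 of the genes share, with the motif in capitals on the strand on which it reads TGACGTG and 10 bases on each side.
COPA, chr1:160343229-160343255, minus strand: agagggtcgcTGACGTGgaggcgtccg
COPB1, chr11:14499842-14499868, plus strand: agtccttggcTGACGTGgaagggggtg
COPB2 upstream, chr3:139389826-139389852, plus strand: ctaagggccgTGACGTGgtgccgctga
COPB2 downstream, chr3:139389633-139389659, plus strand: tcagactgacTGACGTGgaacttccgg
COPE, chr19:18919375-18919401, minus strand: tgcttccggcTGACGTGtctttcagga
SEC23A, chr14:39103223-39103249, minus strand: cccctcctctTGACGTGgcagaggcgg

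In 5 of the 6 sites the core was followed by G, and in COPE by T. The COPA site began 6 bases after the transcription start, on the strand of the gene. The COPB1 site lay on the strand opposite the gene, 47 bases before the start, and the sites of COPE and SEC23A began 4 bases before it on the gene's own strand. The full COPA window is given because COPA carried the leucine difference at 480 min described next; it spans chr1:160343201-160343500 on the minus strand, has 65.7% G or C and holds 25 CG dinucleotides.
COPA promoter: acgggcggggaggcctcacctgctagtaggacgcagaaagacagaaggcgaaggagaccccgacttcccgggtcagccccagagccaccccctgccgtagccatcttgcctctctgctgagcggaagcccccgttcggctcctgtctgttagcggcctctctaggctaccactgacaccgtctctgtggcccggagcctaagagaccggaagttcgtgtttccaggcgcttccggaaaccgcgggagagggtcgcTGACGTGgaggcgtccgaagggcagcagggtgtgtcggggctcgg

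The ER stress response element, CCAAT and CCACG separated by 9 bases, was in 27 windows of the table (0.077%) and in none of the 13. Its CCACG end, read on the other strand, shares the letters CGTG with TGACGTG. The core of the amino acid response element bound by ATF4, TGATGNAA, was in 1270 windows (3.62%) and in none of the 13. CCAAT alone was in 12155 windows (34.6%), and among the coat genes in COPE, SEC23B and SEC31A. The motifs were chosen with the 480 min values known, a match is only a match of letters, and binding was not measured.

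Array medians lay between 433.2 and 492.9 intensity units, and arrays of 1 experiment correlated at 0.970 to 0.996 against 0.910 to 0.939 between experiments. Of 10 hepatocyte genes listed, 9 had a probe set with 1 annotated symbol, and none of these was above the 90th percentile of intensity. Albumin was at percentile 9.92, APOA1 at 67.1 and CYP3A4 just under the threshold at 89.97. Above it were 4 of 6 epithelial genes, among them KRT18 at percentile 99.1. EPCAM and CDH1 were low. Markers of fibroblasts and stellate cells were above that percentile in 5 of 8 genes, including vimentin. Those of endothelial and blood cells were in none of 6 (7 were listed, and 6 had a probe set with 1 annotated symbol).

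Intensities are in arbitrary units as deposited, and they are not compared between probe sets. Changes are differences on a log2 scale after adding 165.2 units and quantile normalization, fitted with limma across 13329 probe sets whose mean was at or above the 40th percentile. A change passed when its Benjamini-Hochberg adjusted p was at most 0.05. Each change is high minus low leucine, or later minus earlier time, over 2 arrays per group, and was tested without and with the experiment as a block, which changes the standard error (SE) and not the estimate. Of the 19 probe sets, 13 entered the fit and cover 8 genes. Where a gene has several, they are told apart as the brightest, the next and the dimmest by mean intensity, which says nothing of how much each transcript there was. Below the filter were the dimmest probe set of COPA (18.7 to 34.2 units over all arrays), the dimmer of COPE (210.0 to 294.8), the dimmest of SEC23B (263.3 to 365.5) and all 3 of SEC24D.

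At 480 min COPA, whose product is the alpha subunit of coatomer, was lower in high leucine, and no probe set of another coat subunit passed. The brightest probe set of COPA read 2336 and 2641 units in low leucine (first and second experiment) and 1768 and 1757 units in high leucine. No other array of the series was below 2118 units. The log2 change was -0.49 (SE 0.07, or 0.06 with the block), at -0.41 and -0.57 in the first and second experiment. It passed in both fits, where 0.27% of probe sets passed without the block and 4.09% with it. It was the only one of the 13 coat probe sets to pass in either fit. At an unadjusted p under 0.05 there were 2 without the block and 3 with it, against 886 and 2209 of all 13329.

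The next COPA probe set in the fit did not show a change of that size. It read 1006 and 683.0 units in low leucine and 957.3 and 590.2 units in high leucine at 480 min, a log2 change of -0.11 with SE 0.59, or 0.14 with the block. Its levels separated by experiment rather than by leucine: the 10 arrays of the first experiment lay between 957.3 and 1387 units and those of the second between 528.7 and 696.9. The difference of second minus first experiment was -0.88 (SE 0.06, adjusted p = 3.8e-09, limma), while the brightest probe set differed by 0.04 (SE 0.03, adjusted p = 0.24). Which transcripts the probe sets of COPA read was not tested.

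**Figure D1:**
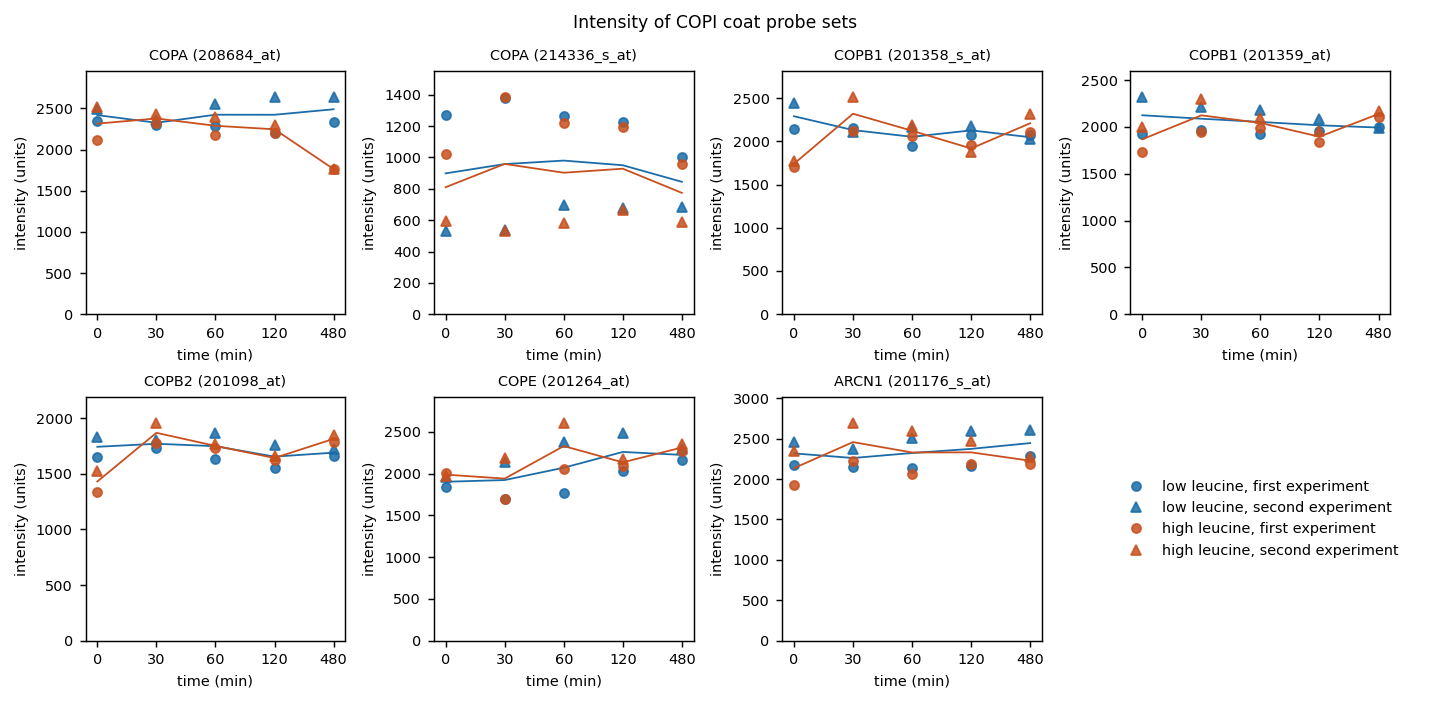
Deposited intensity (arbitrary units, axes from 0) of the COPI probe sets in the fit against time in min, 1 panel per probe set with its identifier; circles are the first experiment, triangles the second, lines join group means of 2 arrays, and colour gives leucine. In the first COPA panel, of its brightest probe set, the high-leucine arrays at 480 min, 1768 and 1757 units, sit under all others.

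COPB2, the beta prime subunit that forms the cage-like part of coatomer with COPA and COPE, read 1663 and 1721 units in low and 1785 and 1846 units in high leucine at 480 min, a change of 0.07 (SE 0.06). COPE, the epsilon subunit that steadies COPA, read 2158 and 2290 units in low and 2268 and 2358 units in high leucine, a change of 0.03 (SE 0.11). Changes of COPB2 and COPE were above 0 in both experiments, but neither passed and they cannot be told from 0.

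COPB1, the beta subunit of the adaptor-like part, read 2069 and 2025 units in low and 2102 and 2314 units in high leucine with its brighter probe set, a change of 0.07 (SE 0.07). Its dimmer probe set gave 0.07 as well. ARCN1, the delta subunit, read 2285 and 2606 units in low and 2183 and 2272 units in high leucine. Its change was -0.15 (SE 0.10, or 0.06 with the block), below 0 in both experiments.

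Of COPII, SEC23A, which stimulates GTP hydrolysis by SAR1, read 963.9 and 945.5 units in low and 1109 and 1088 units in high leucine with the dimmer of its probe sets. The change was 0.16 (SE 0.07, or 0.06 with the block). The brighter SEC23A probe set gave 0.09, at -0.04 and 0.22 in the first and second experiment. SEC23B, the paralog, gave -0.08 with its brightest probe set and 0.02 with the next. SEC31A, of the outer cage, gave -0.05 with the brighter and -0.06 with the dimmer probe set.

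SEC24D, a cargo-binding subunit of the inner layer, was measured only by dim probe sets. Its brightest read 475.0 and 358.5 units in low and 476.4 and 362.7 units in high leucine at 480 min, a change of 0.03 in a fit without the filter. Over the 13 filtered probe sets, 6 changes were below 0 and the median was 0.02, against -0.01 over all 13329.

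**Figure D2:**
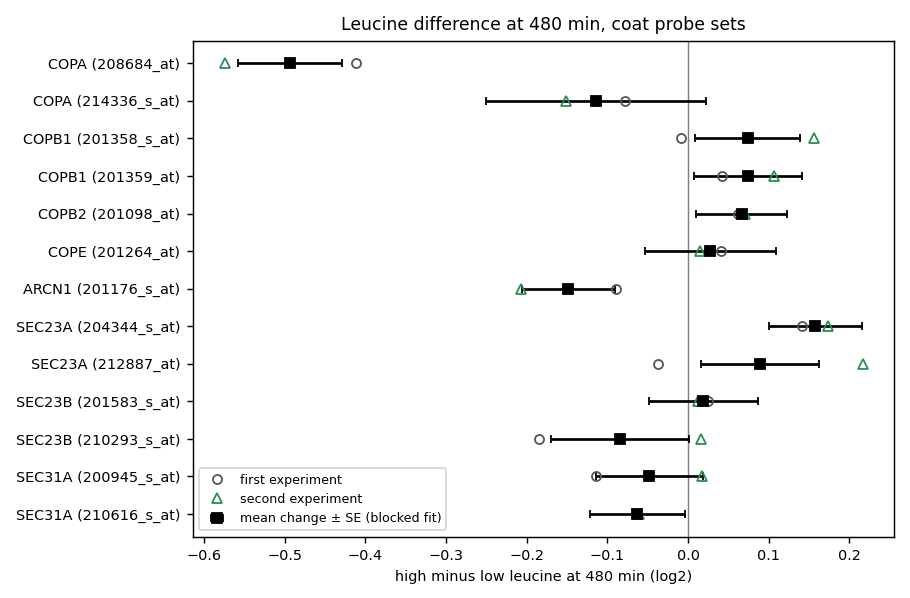
High minus low leucine at 480 min (log2) for the 13 coat probe sets; squares are the change with its SE from the fit with the experiment block, circles the first experiment and triangles the second. The brightest COPA probe set stands at -0.49, with the rest between -0.15 and 0.16.

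Against 0 min, the brightest COPA probe set at 480 min was lower in high leucine and close to its starting level in low leucine. The low-leucine arrays of the brightest COPA probe set read 2342 and 2494 units at 0 min and 2336 and 2641 units at 480 min, a change of 0.02. The high-leucine arrays went from 2118 and 2511 units to 1768 and 1757 units, a change of -0.48. The next COPA probe set did not pass at either leucine level. It went from 1268 and 528.7 to 1006 and 683.0 units in low leucine, in opposite directions in the experiments. In high leucine it went from 1024 and 595.4 to 957.3 and 590.2 units. These comparisons share the 480 min arrays on which the genes were selected, so nothing further is read from their counts. In low leucine none of the 13 passed in either limma fit, with 0% of all probe sets passing without the block and 0.233% with it. There 1 without and 2 with the block had an unadjusted p under 0.05, against 734 and 2066 of all 13329. In high leucine 1 passed without the block and 4 with it, where 1.72% and 15.2% of all probe sets passed.

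The other 3 that passed with the block in high leucine were the brighter probe sets of COPB1 (0.22) and SEC23A (0.27) and that of COPB2 (0.22), all higher at 480 min. The brightest COPA probe set was lower, so the high-leucine comparison holds COPI probe sets in both directions. The 3 rises are measured from the high-leucine arrays of 0 min, which held the lowest deposited values of the series for each of these probe sets. The dimmer probe sets of COPB1 and SEC23A did not pass. That of COPB1 went from 1735 and 2001 to 2107 and 2170 units, and that of SEC23A from 993.2 and 978.0 to 1109 and 1088 units. In the fit without the filter the brightest SEC24D probe set had 0.53 (SE 0.12), with adjusted p = 0.012 with the block and 0.12 without it (limma). The share of all probe sets passing there was not computed, and with the filter and the block it was 15.2%. This rise, too, is measured from the high-leucine arrays of 0 min, at 255.1 and 231.5 units.

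High and low leucine were also compared at 0, 30, 60 and 120 min. These arrays were not part of the comparison on which the genes were selected, but they share its normalization and its variance estimate. The coat genes were also chosen with earlier results of these data known. The calls at these times are therefore not an independent test of the selected genes. At 0 min several coat probe sets were lower in high leucine, and their calls hold only with the block. The brighter COPB1 probe set read 2138 and 2441 units in low and 1704 and 1774 units in high leucine. The change was -0.31 (SE 0.07), with adjusted p = 0.049 with the block and 0.47 without it (limma). The dimmer one read 1927 and 2323 against 1735 and 2001 units, a change of -0.10 with adjusted p = 0.48 with the block.

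SEC23B also had 1 probe set in the fit past the threshold and the other not. Its brightest probe set read 1327 and 1608 units in low and 836.9 and 1255 units in high leucine, a change of -0.40 (SE 0.09) with adjusted p = 0.049 with the block and 0.72 without it. With the next probe set the change was -0.02. The experiments differed in size for the brightest, at -0.55 and -0.26.

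COPB2 read 1657 and 1832 units in low and 1334 and 1530 units in high leucine at 0 min. Its change of -0.20 (SE 0.06) did not pass, with adjusted p = 0.089 with the block. COPA, at 0.01, COPE, at 0.12, and ARCN1, at -0.05, did not pass either. In all, 2 of 13 passed with the block, where 0.578% of all probe sets did, and 0 passed without it, where 0% did. An unadjusted p under 0.05 was reached by 3 of the 13 without and 4 with the block, against 862 and 2266 of all 13329. The median over the 13 was -0.05, against 0.01 over all. Of 20 fits that each leave out 1 array, COPB1 and SEC23B each passed in 3 with the block.

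SEC24D had the largest change at 0 min among the coat probe sets. With its brightest probe set, just under the filter, it read 440.7 and 513.2 units in low and 255.1 and 231.5 units in high leucine. In a fit without the filter, where 0.392% of probe sets passed with the block, the change was -0.65 (SE 0.12), with adjusted p = 0.034 with the block and 0.48 without it. Its remaining probe sets, at 65.3 to 96.2 units and 35.9 to 143.6 units, were near the bottom of the range of the array.

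**Figure D3:**
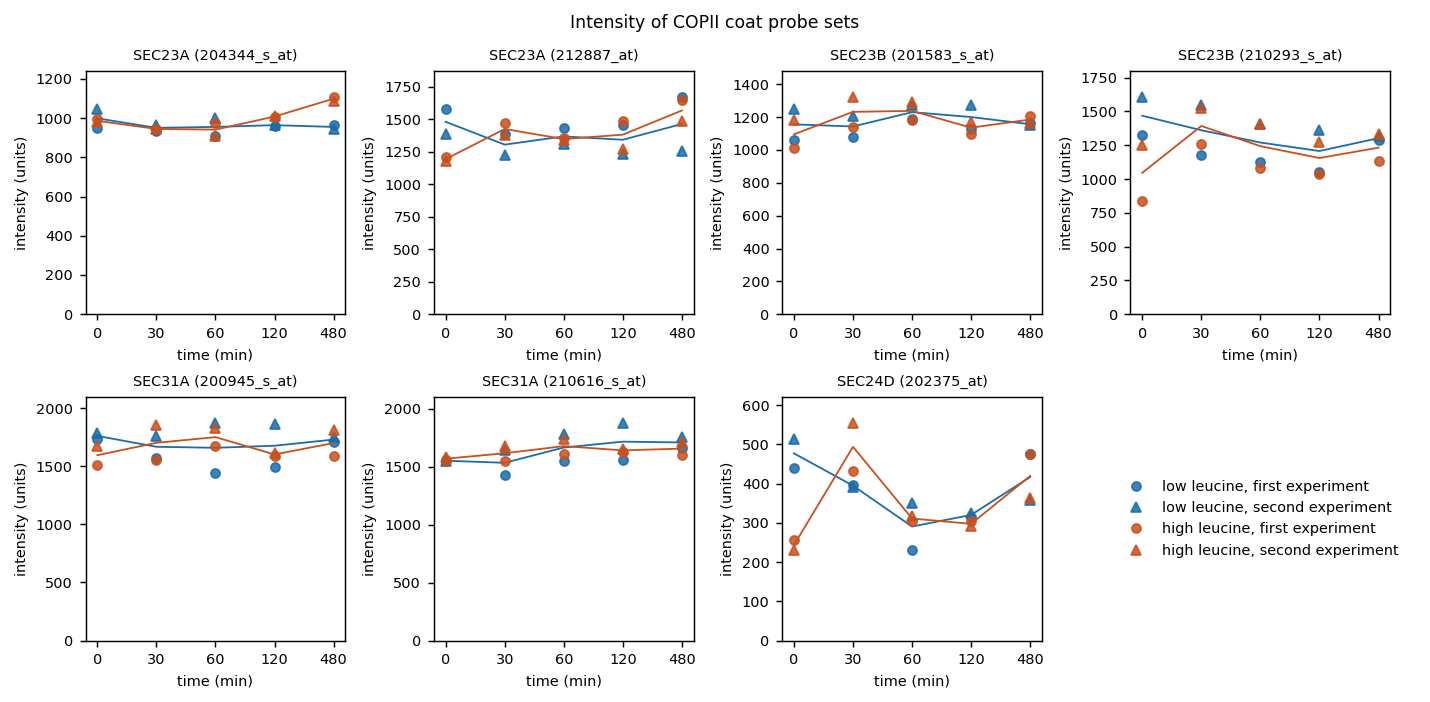
Deposited intensity (arbitrary units, axes from 0) of COPII probe sets against time in min, 1 panel per probe set, drawn as for COPI; the SEC24D panel is of a probe set below the filter. At 0 min SEC24D and the brightest SEC23B probe set are lower in high than in low leucine in each experiment.

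None of the 13 coat probe sets differed by leucine at 30, 60 or 120 min in either limma fit, and none had an unadjusted p under 0.05. Of all 13329, such a p was found for 154, 102 and 137 at these times without the block and 593, 419 and 601 with it. Over all probe sets 0% passed at 30 and at 60 min in both fits, and 0.0075% without and 0.03% with the block passed at 120 min. For the brightest COPA probe set the changes were 0.00 at 30 min, -0.10 at 60 min and -0.04 at 120 min, so the difference of -0.49 was seen at 480 min alone among the 5 times. The largest departures were small: the brighter SEC23A probe set at 0.11 (SE 0.07) at 30 min, COPE at 0.15 (SE 0.08) at 60 min and the brighter COPB1 probe set at -0.09 (SE 0.07) at 120 min. The SEs bound what 2 arrays per group could detect.

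**Figure D4:**
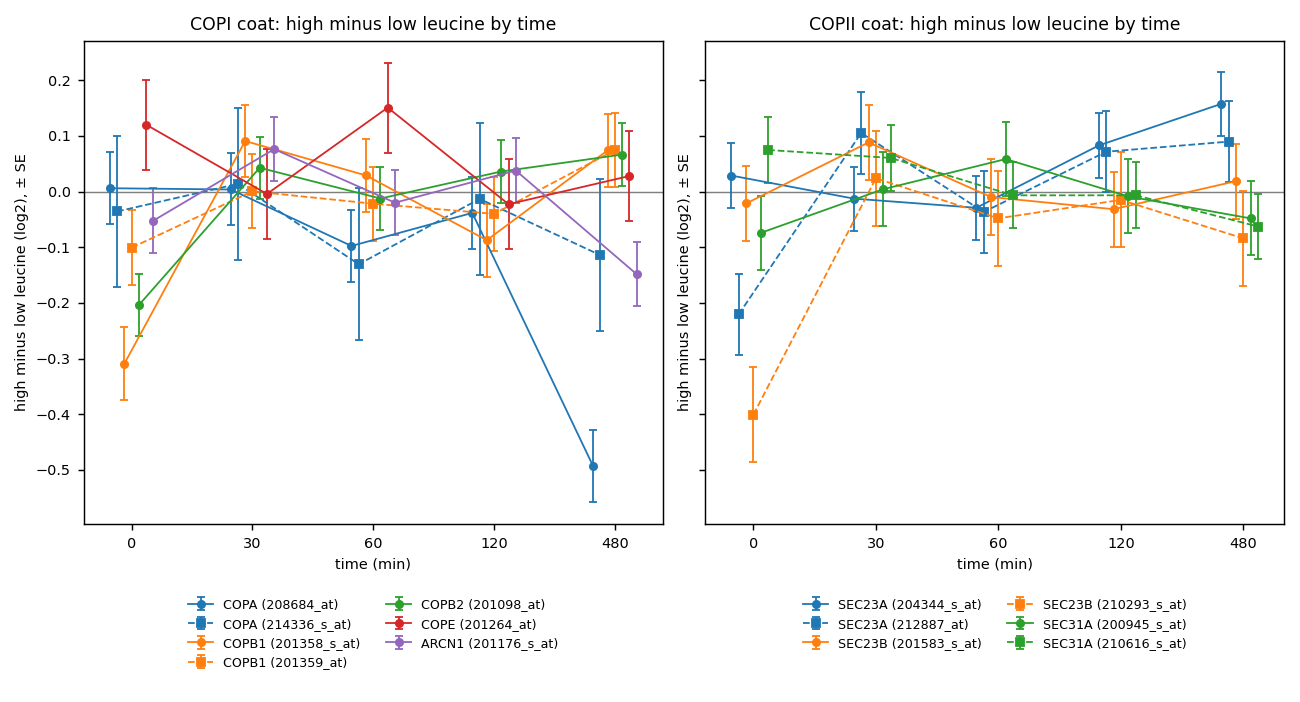
High minus low leucine (log2) by time in min for COPI (left) and COPII (right) probe sets in the fit, with error bars of 1 SE from the fit with the block; lines join times of 1 probe set. At 0 min the brightest probe sets of COPB1 and SEC23B are the lowest, at -0.31 and -0.40, and at 480 min that of COPA is, at -0.49.

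In high leucine, the probe sets of COPB1, COPB2 and SEC23B that were low at 0 min read higher at 30 min. This comparison, high leucine at 30 against 0 min, was added after the data were seen and shares the high-leucine 0 min arrays with the leucine comparison at 0 min. The brighter COPB1 probe set rose from 1704 and 1774 units to 2122 and 2515 units, a change of 0.31 (SE 0.07, adjusted p = 0.020 with the block, 0.17 without). COPB2 went from 1334 and 1530 units to 1782 and 1958 units, a change of 0.28 (SE 0.06, adjusted p = 0.017 with the block and 0.17 without). The brightest SEC23B probe set went from 836.9 and 1255 to 1259 and 1525 units, a change of 0.31 (SE 0.09, adjusted p = 0.044 with the block and 0.55 without). The dimmer COPB1 probe set went from 1735 and 2001 to 1945 and 2303 units and did not pass in either fit. Nor did the next SEC23B probe set, at 1011 and 1179 units and then 1140 and 1324 units.

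The brighter COPB1, the COPB2 and the brightest SEC23B probe set, 3 of 13, passed with the block, where 5.71% of all probe sets did. None passed without it, where 0% of all did. An unadjusted p under 0.05 was found for 2 without the block and 4 with it, against 1354 and 3339 of all 13329. The brightest SEC24D probe set rose from 255.1 and 231.5 to 432.9 and 554.3 units, a change of 0.70 (SE 0.12) with adjusted p = 0.016 with the block and 0.20 without it, in the fit without the filter, where 3.79% passed. COPB1 passed in 18, COPB2 in 17 and SEC23B in 7 of the 20 fits that each leave out 1 array, with the block. None of the 13 passed without the first-experiment array of high leucine at 0 min, and none without the second-experiment array of high leucine at 30 min. Without the first-experiment array at 30 min 1 passed.

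In low leucine the brighter COPB1 probe set read 2138 and 2441 units at 0 min and 2153 and 2106 units at 30 min. COPB2 read 1657 and 1832 against 1735 and 1809 units. The leucine difference at 30 min minus that at 0 min, also a contrast added after the data were seen, was 0.40 for the brighter COPB1 probe set (SE 0.09) and did not pass (adjusted p = 0.067 with the block and 0.56 without). COPB2, at 0.25 (adjusted p = 0.14 with the block), and the brightest SEC23B probe set, at 0.42 (adjusted p = 0.10 with the block), did not pass either, where 0.323% of all probe sets passed with the block and 0% without. For the brightest SEC24D probe set, in the fit without the filter, it was 0.90 (SE 0.17), which passed with the block (adjusted p = 0.045) and not without it (0.60), where 0.275% passed with the block.

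Averaged over leucine levels, no time point gave a call among the coat genes. None of the 13 passed for 30, 60 or 120 min against 0 min in either fit. With the block 2, 1 and 0 had an unadjusted p under 0.05, against 1787, 3181 and 2595 of all 13329. Without it the counts were the same, against 545, 1159 and 902. Over all probe sets 0.0075% passed at 30 min in both fits, 0.0075% without and 2.54% with the block at 60 min, and 0% and 0.893% at 120 min. COPB2 was nearest, at 0.16 (SE 0.04, adjusted p = 0.21 with the block) at 30 min and 0.09 (SE 0.04, adjusted p = 0.17 with the block) at 60 min. At 120 min it was COPE, at 0.11 (SE 0.06, adjusted p = 0.30 with the block).

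The experiment moved 6 of the 13 probe sets past the threshold, against 62% of all probe sets. Besides the second COPA probe set, the brighter one of SEC23A was lower in the second experiment, at -0.22 (adjusted p = 3.1e-05, limma). The brightest of SEC23B, at 0.21, ARCN1, at 0.12, COPE, at 0.11, and the brighter of SEC31A, at 0.08, were higher in it. Probe sets of 1 gene could fall on both sides of the threshold: the dimmer one of SEC23A, at -0.06, and the next one of SEC23B, at 0.04, did not pass.

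Across the 20 arrays, with each experiment centred on its mean, 28 pairs of the 8 genes had Pearson correlations from -0.50 to 0.77, with median 0.19 and 20 above 0. These are descriptions over arrays that share the normalization and the 10 groups. COPB1, COPB2, SEC23A and SEC23B followed each other most closely, with their 6 pairs between 0.48 and 0.77. COPA followed ARCN1 at 0.61. Against the mean of the others, SEC23B had 0.79, COPB2 0.54 and COPB1 0.52, while COPA had -0.14 and COPE -0.48. Probe sets of the same gene correlated at 0.69 for COPB1, 0.40 for COPA, 0.36 for SEC23B, 0.27 for SEC23A and 0.16 for SEC31A.

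Of 8272 genes, those whose pattern was most like the mean of the coat genes were ATP2C1, the calcium and manganese pump of the Golgi, at 0.82, STIL at 0.79, SIRT1 and NEK7 at 0.78 and CHMP5 at 0.76, over the same 20 arrays. The gene ranked 500 stood at 0.49. COPA on its own had other neighbours, listed after its values were seen: EIF3A and CAMTA2 at 0.95, and SLC7A1, a transporter of cationic amino acids, and CARS1 and SARS1, the cysteine and serine tRNA synthetases, at 0.94. For COPA the gene ranked 500 stood at 0.55. The COPA correlations include the 480 min arrays of the selection, whose high-leucine COPA values were the lowest of the series, and are a description only.

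The other genes of the same transport steps gave few calls at 480 min. Lists of 69 genes had 59 in the fit, with 94 probe sets. In limma 0 passed without the block and 1 with it, against 0.27% and 4.09% of all probe sets. The unadjusted p was under 0.05 for 6 and 16 of the 94, against 886 and 2209 of all 13329. The 1 that passed with the block was RINT1, a subunit of a complex that tethers COPI vesicles at the endoplasmic reticulum. It read 390.9 and 320.6 units in low and 485.9 and 489.6 units in high leucine, a change of 0.35 (SE 0.07, adjusted p = 0.013 with the block, 0.32 without).

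Among remaining coatomer subunits, COPZ1 had 0.15 (adjusted p = 0.24 with the block), COPG1 -0.11 and COPZ2 0.02, so 0 of 3 in the fit passed in either limma fit (1 at an unadjusted p under 0.05). Of COPII, SEC24B had 0.20, SEC24A 0.15, SEC13 -0.12, SEC31B -0.08 and SEC24C 0.01, and 0 of 5 passed in either limma fit (0 without and 3 with the block at an unadjusted p under 0.05). SAR1A, the GTPase that starts COPII assembly, had 0.19 with 1 probe set (adjusted p = 0.10 with the block) and -0.04 with the other. MIA2, which loads large cargo at exit sites, had -0.32 (adjusted p = 0.053 with the block) with its 1 probe set in the fit. RAB2A, a GTPase of the early secretory route, had -0.20 with 1 probe set (adjusted p = 0.086 with the block), while its other 4 lay above 0, between 0.08 and 0.15.

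The medians of the lists at 480 min lay from -0.01 for SAR1 and its scaffolds to 0.04 for ARF proteins and for cargo receptors. Clathrin and its adaptors, which coat vesicles of other routes, had a median of 0.01 over 31 probe sets of 14 genes, and none passed in either limma fit, with 0 and 6 at an unadjusted p under 0.05.

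At 0 min limma passed none of the 94 probe sets, where 0% of all probe sets passed without and 0.578% with the block. The unadjusted p was under 0.05 for 5 without and 19 with the block, against 862 and 2266 of all 13329. MCFD2, which carries cargo with the receptor LMAN1, had -0.47 with 1 probe set (-0.20 with the other) and SCFD1, which regulates fusion at the Golgi, -0.29, each with adjusted p = 0.053 with the block. For high leucine at 30 against 0 min, 6 of the 94 passed with the block and 0 without (limma). That share is near the 5.71% of all probe sets that passed with the block, and 0% passed without it. The unadjusted p was under 0.05 for 11 without and 24 with the block, against 1354 and 3339 of all 13329. SCFD1, at 0.31, SAR1B, at 0.25, and 1 probe set each of MCFD2, at 0.49, and RAB1A, at 0.24, were higher. The second MCFD2 probe set, at 0.20, and the other 2 of RAB1A, at 0.24 and -0.0038, did not pass. ARF5, at -0.29, and 1 probe set of GOSR2, at -0.37, were lower, while the other 3 of GOSR2 did not pass, at 0.11, 0.02 and -0.10.

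**Figure D5:**
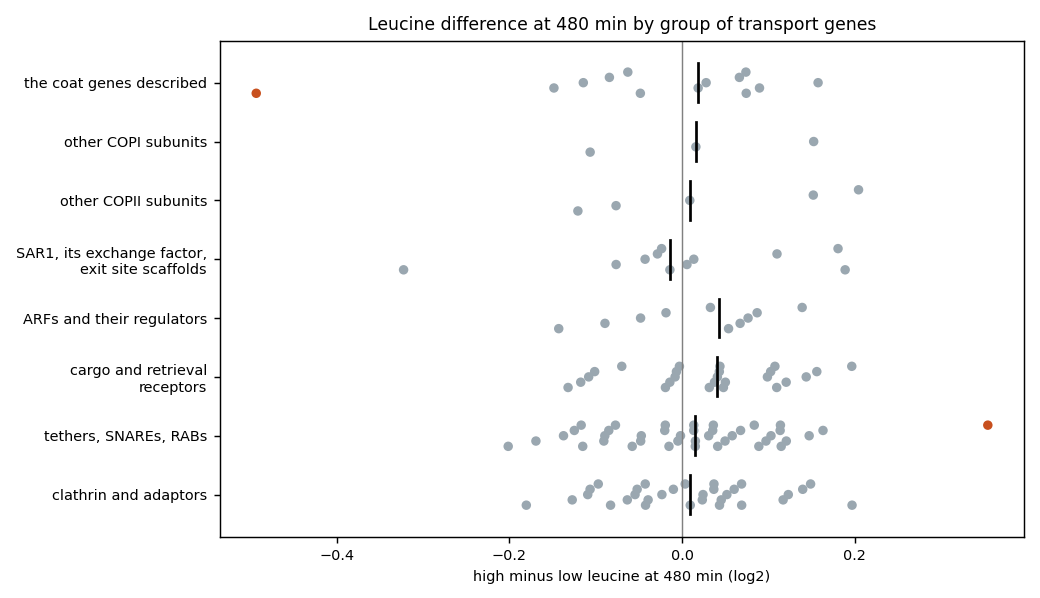
High minus low leucine at 480 min (log2) for each probe set in the fit, by group of transport genes; black bars are group medians and red points passed with the experiment block. COPA (-0.49) and RINT1 (0.35) are the red points, and all medians lie between -0.01 and 0.04.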

How the data were processed

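Total RNA of THLE-3 cells was read on 20 arrays. The authors deposited linear probe set intensity values, with their summarisation and scaling not given in the sources used here. Coat genes, related gene lists and the motifs were chosen with earlier results of these data known. A probe set was assigned a gene only where the platform annotation gave 1 symbol: 19065 of 22215 did, 1043 gave several and 2107 none, and 19053 were matched to RefSeq by gene ID. Values plus 165.2 (the arrays' 10th percentiles have this median) were log2 transformed and quantile normalized, and probe sets with a mean under the 40th percentile were left out. Changes were tested with limma 3.58.1 in R 4.3.3 (1 mean per group, trended eBayes, Benjamini-Hochberg over all 13329), two-sided; the scripts were tested on simulated data. The labels put same-numbered arrays in 1 experiment, and their deviations from group means correlated at 0.81 to 0.93, so the fit with that block is given beside the main fit. Named genes were all coat probe sets, and of the related lists those passing or with the smallest p. Alternatives were the block, no normalization, median centring, other pseudocounts and filters, and leaving out each array. For arrays, their number limits the precision.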

Additional observations from a re-analysis of the deposited data

How the results depend on the processing

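The brightest COPA probe set at 480 min kept its direction under every alternative run, with changes from -0.57 to -0.40, single experiments included. Its call was lost on the values as deposited, without normalization, and, without the block, when any of the 4 arrays of 480 min was left out. With the block, leaving out 1 of these 4 gave changes from -0.54 to -0.44. Leaving out an array of another time cannot move the estimate, which stayed at -0.49. Since the genes were selected on this comparison, such fits are no independent test of it. The count of all probe sets passing at 480 min was 36, 545 with the replicate block, 15 on the values as deposited and 0 to 32 when 1 array was left out. For the coat probe sets it was 1 and then 0 on the values as deposited, and 0 to 1 leaving out an array. For 480 against 0 min within a level it was 1, against 4 with the replicate block, 0 on the values as deposited, 3 with median centring and 0 to 1 leaving out an array. The replicate block raised the count from 0 to 2 for leucine at 0 to 120 min, from 0 to 3 for high leucine at 30 against 0 min, and from 0 to 1 for related genes higher at 480 min. For the experiment difference it was 6 and, on the values as deposited, 12. The median change of the coat probe sets at 480 min, 0.02, ranged from -0.048 to 0.056 leaving out an array. Of 385 alternatives for single probe sets, 360 stayed within the spread, 24 moved further and 1 reversed a called change: the dimmest COPA probe set, taken in place of the brightest at 480 min, gave 0.060. Many of the 360 were fixed in advance and are no sign of stability. Leaving out an array of another time, changing the filter or dropping the intensity trend cannot move a change at 480 min. Among changes that had not passed, signs were not stable: the next COPA probe set ranged from -0.43 to 0.20, the brighter SEC23A from -0.12 to 0.30, the brightest SEC23B from -0.18 to 0.016 and the brighter COPB1 from -0.0087 to 0.16. The call of RINT1 with the block was lost without either second-experiment array of 480 min. Causes of these shifts were not tested. With 2 arrays per group, a change that did not pass cannot be told from 0, even where it was larger than its SE. For dim probe sets such as those of SEC24D the added 165.2 units understate changes.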
